A study of Mus musculus with 8 samples.

Results

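A set of 8 collagen genes that do not form the main fibrils were followed in the aorta of Marfan mice: the collagen VI chains Col6a1, Col6a2 and Col6a3, the collagen VIII chains Col8a1 and Col8a2, and the fibril-associated collagens Col12a1, Col14a1 and Col16a1. They were taken by gene symbol, 8 of the 25526 genes in the count tables, and all 8 were counted in every library and tested. The animals were male mice heterozygous for Fbn1 C1041G, a missense allele of fibrillin-1 that serves as a model of Marfan syndrome. The groups were 4 mice aged 12 weeks, when aneurysms grow, and 4 mice aged 2 years, when growth has stopped, per the series' design text. Both groups carry the allele, so age is the only contrast, and the labels name the tissue only as aorta.

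Collagen VI is assembled from an alpha 1, an alpha 2 and an alpha 3 chain into beaded microfilaments that lie close to basement membranes and tie cells to the surrounding matrix. Collagen VIII is a short-chain collagen that forms networks; smooth muscle and endothelial cells of arteries make it, and it is known for its increase after arterial injury. Collagens XII, XIV and XVI belong to the fibril-associated collagens with interrupted triple helices, which decorate the surface of collagen fibrils and link them to other matrix proteins. Collagen XVI has been found with fibrillin microfibrils in skin.

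What the 8 genes share in sequence is the collagen repeat, in which a GGN codon for glycine is followed by a pair of other codons, over and over. In the longest annotated protein-coding transcript of each member (GENCODE M21, GRCm38) the longest unbroken run of such repeats was 87 in Col6a1 and in Col6a2, 45 in Col6a3, 61 in Col8a1, 60 in Col8a2, 32 in Col12a1 and in Col14a1, and 52 in Col16a1. Runs of at least 10 repeats occur in 98 of 21877 coding sequences (0.45%). Such runs made up 52.8% of the codons of Col8a1, 55.8% of Col8a2 and 55.1% of Col16a1, but 29.6% of Col6a1, 35.4% of Col6a2, 10.1% of Col6a3, 13% of Col14a1 and 7.6% of Col12a1. Collagen VI, XII and XIV chains are thus mostly other domains by length, and the collagen VIII chains are mostly collagen repeat. The first 10 repeats of the longest run are shown for the partner chains Col6a1 and Col6a2, whose transcripts both fell. They are also shown for the partner chains Col8a1 and Col8a2, whose transcripts both rose. The GGN codons are in capitals.

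Col6a1: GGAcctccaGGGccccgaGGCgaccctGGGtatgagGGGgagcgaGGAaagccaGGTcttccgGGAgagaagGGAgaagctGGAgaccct
Col6a2: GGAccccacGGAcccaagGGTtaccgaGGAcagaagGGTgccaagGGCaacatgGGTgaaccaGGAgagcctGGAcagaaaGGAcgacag
Col8a1: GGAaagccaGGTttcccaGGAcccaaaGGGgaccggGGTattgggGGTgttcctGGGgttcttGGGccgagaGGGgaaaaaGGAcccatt
Col8a2: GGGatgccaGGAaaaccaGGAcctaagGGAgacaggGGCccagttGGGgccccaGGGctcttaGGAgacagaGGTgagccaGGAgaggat

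Collagen VI and collagen VIII transcripts moved in opposite directions between the ages. All 3 collagen VI chains fell, by 1.73-fold to 2.42-fold, and both collagen VIII chains rose, Col8a1 by 3.42-fold and Col8a2 by 2.86-fold. Of the fibril-associated collagens Col16a1 fell 1.99-fold, a call that depended on single libraries, and Col12a1 and Col14a1 did not pass the threshold. In all, 2 members were called higher and 4 lower at 2 years (edgeR's quasi-likelihood test, adjusted p below 0.05). Over all 13978 genes tested 25.8% were called higher and 26.2% lower, 52% together, so calls are common in this comparison, as are groups without overlap (49.6% of genes), and the count of members called is not a result about them. Levels are CPM, counts divided by the library's total after TMM scaling (a trimmed mean of log ratios between libraries), fold changes are 2 years over 12 weeks, and SE is the standard error of the log2 fold change.

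**Figure D1:**
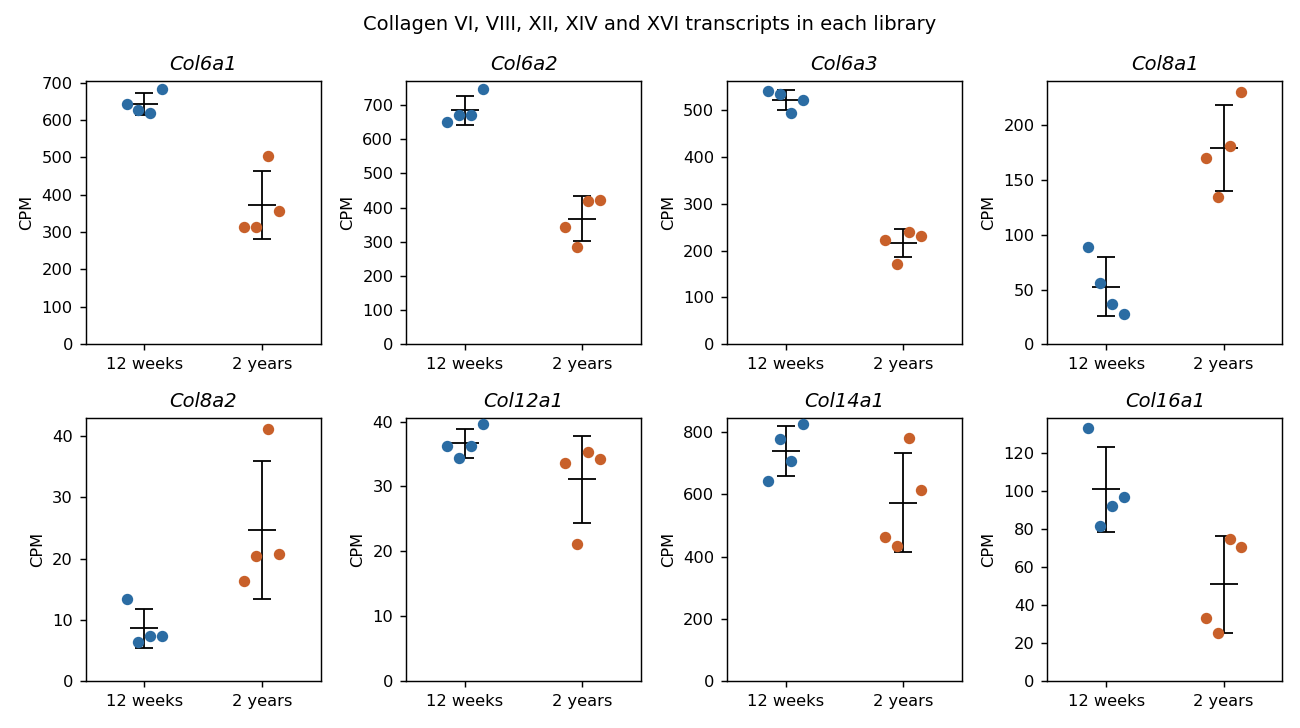
Level of each collagen gene in CPM (vertical axes from 0) in the 4 libraries at 12 weeks (blue) and the 4 at 2 years (orange); bars are the mean and SD. The groups do not overlap for Col6a1, Col6a2, Col6a3, Col8a1, Col8a2 and Col16a1, and overlap for Col12a1 and Col14a1.

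Col6a3 encodes the largest of the 3 main collagen VI chains. It stood at 539.8, 534.8, 492.6 and 521.5 CPM in 12 weeks replicates 1 to 4 and at 221.6, 172.1, 239.5 and 230.3 CPM in 2 years replicates 1 to 4. Every 2-year library lay below every 12-week library. With group means of 522 ± 21.2 and 216 ± 30.1 CPM (SD, n = 4), the fitted log2 change was -1.27 with an SE of 0.138 (edgeR adjusted p = 3.14e-05).

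Col6a1 and Col6a2, the other two chains of the molecule, are neighbours on the same chromosome with only noncoding genes annotated between them. Col6a1 stood at 643.0, 626.2, 619.8 and 684.0 CPM at 12 weeks and at 312.5, 314.3, 504.6 and 357.0 CPM at 2 years. Replicate 3 was the highest of the 2-year values, still below all 12-week values. The log2 fold change was -0.79 (SE 0.169, edgeR adjusted p = 0.00251), from 643 ± 28.9 to 372 ± 90.7 CPM (SD, n = 4). Col6a2 stood at 649.4, 670.3, 671.1 and 747.3 CPM at 12 weeks and at 342.3, 285.9, 419.4 and 422.4 CPM at 2 years, again without overlap. Its log2 fold change was -0.90 (SE 0.154, edgeR adjusted p = 0.000643).

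Col8a1, the more abundant collagen VIII chain, stood at 88.96, 56.1, 36.77 and 28.02 CPM in 12 weeks replicates 1 to 4 and at 170.2, 134.8, 181.3 and 230.3 CPM in 2 years replicates 1 to 4. The 12-week mice differed more than 3-fold among themselves, and the highest of them, replicate 1, was still below every 2-year mouse. Group means were 52.46 ± 27.01 and 179.2 ± 39.5 CPM (SD, n = 4), and the fitted log2 change was 1.77 with an SE of 0.332 (edgeR adjusted p = 0.00154). Col8a2, its partner chain, stood at 13.36, 6.315, 7.361 and 7.34 CPM at 12 weeks and at 16.29, 20.43, 41.22 and 20.76 CPM at 2 years. The highest values were those of replicate 1 at 12 weeks and replicate 3 at 2 years, and the groups did not overlap. Its log2 fold change was 1.52 (SE 0.323, edgeR adjusted p = 0.00294).

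Col16a1, the fibril-associated collagen with the longest collagenous part of the 3, stood at 133.4, 81.78, 92.21 and 97.0 CPM at 12 weeks and at 32.95, 25.29, 75.1 and 70.76 CPM at 2 years. The 2-year mice fell into a lower pair, replicates 1 and 2, and a higher pair, replicates 3 and 4, and the groups did not overlap. The log2 fold change was -0.99 (SE 0.340, edgeR adjusted p = 0.0334). It did not pass the threshold without 12 weeks replicate 1 (-0.83, adjusted p = 0.0823), without 12 weeks replicate 4 (-1.01, adjusted p = 0.0581) or without 2 years replicate 1 (-0.83, adjusted p = 0.0795).

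Col14a1, which binds decorin and the fibril surface, stood at 642.4, 779.3, 707.4 and 826.1 CPM at 12 weeks and at 464.2, 435.2, 779.9 and 613.5 CPM at 2 years. Only 2 years replicate 3 reached into the upper part of the 12-week range. The log2 fold change was -0.37 (SE 0.193, edgeR adjusted p = 0.132), and without that library it was -0.55 and called (adjusted p = 0.0117). Col12a1, a large collagen of tendon and stressed matrix, stood at 36.29, 34.35, 36.17 and 39.66 CPM at 12 weeks and at 33.64, 21.11, 35.31 and 34.23 CPM at 2 years. Apart from replicate 2, the 2-year values lay within or just under the 12-week range. Its log2 fold change was -0.24 (SE 0.161, edgeR adjusted p = 0.235).

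Levels can be compared between genes per length of transcript. At 12 weeks the levels in CPM per kilobase were 157 ± 7.05 for Col6a1, 147 ± 9.25 for Col6a2, 114 ± 12.5 for Col14a1, 51.7 ± 2.09 for Col6a3, 19.4 ± 4.31 for Col16a1, 10.3 ± 5.29 for Col8a1, 3.18 ± 0.192 for Col12a1 and 1.98 ± 0.743 for Col8a2 (SD, n = 4). The ranges over libraries of Col6a1 and Col6a2, of Col16a1 and Col8a1, and of Col12a1 and Col8a2 overlapped. Within every 12-week library the first of each pair was the higher. These orders are not corrected for the trend on transcript length described below. At 2 years Col6a1 (90.8 ± 22.1 CPM per kilobase), Col14a1 (88.8 ± 24.5) and Col6a2 (79.0 ± 14.2) overlapped one another. Col8a1 came next at 35.1 ± 7.72 CPM per kilobase, above Col6a3 (21.4 ± 2.98) without overlap. How far apart they lie depends on the trend of fold changes on transcript length described next. The 12-week levels times the fold changes with that trend removed give 39.2 for Col8a1 and 38.0 CPM per kilobase for Col6a3. These values take the 12-week levels as the reference, although those levels carry a length trend too, so they do not settle the order. Below Col8a1 and Col6a3 was Col16a1 (9.80 ± 4.91 CPM per kilobase). Its range overlapped that of Col8a2 (5.70 ± 2.59), although Col16a1 was the higher in every 2-year library. Col12a1 (2.70 ± 0.580) was lower than all others.

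**Figure D2:**
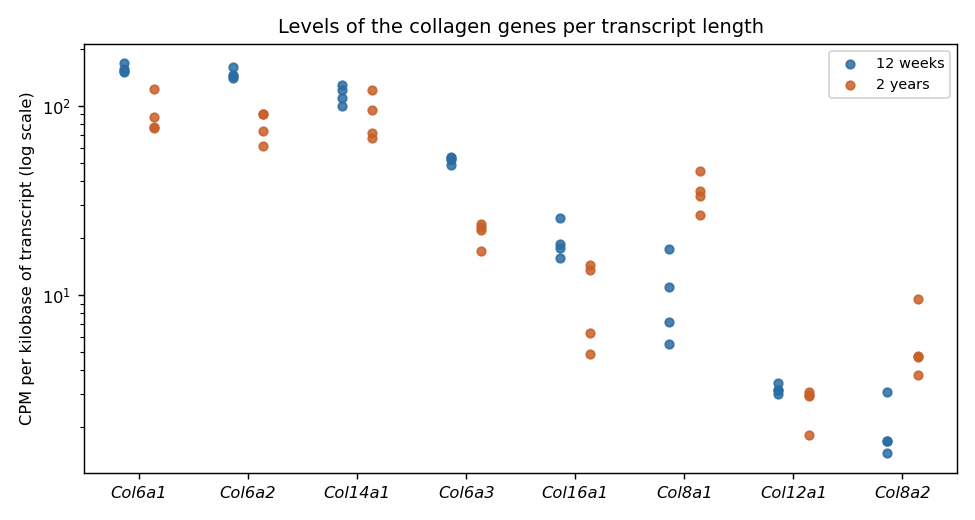
Level of each collagen gene in CPM per kilobase of transcript (log axis), ordered by the 12-week mean; each point is a library at 12 weeks (blue) or 2 years (orange). Col8a1 lay below Col6a3 at 12 weeks (10.3 against 51.7 CPM per kilobase) and above it at 2 years (35.1 against 21.4). These levels are not corrected for the length trend. With the 12-week levels as the reference, the fold changes with the trend removed give 39.2 and 38.0 at 2 years.

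Fold changes in these libraries depended on transcript length, and the collagen transcripts differ widely in it, from 4100 nt for Col6a1 to 11511 nt for Col12a1. Across all genes the median log2 fold change went from 0.60 in the shortest of 10 bins by length (median 1034.5 nt) to -0.64 in the longest (median 8290 nt). For each library, log2 CPM was taken relative to each gene's mean over the 8 libraries. The slope of these deviations on log2 length was 0.125 to 0.261 in the 12-week libraries and -0.315 to -0.107 in the 2-year libraries. These slopes compare the libraries with one another and give no absolute length bias. Age and this trend cannot be told apart by design, and its source was not tested. An offset that removes each library's trend on length and GC share was therefore fitted beside the main model. With it all 3 collagen VI chains remained called lower, Col6a1 at -0.58 (edgeR adjusted p = 0.00687), Col6a2 at -0.62 (adjusted p = 0.00146) and Col6a3 at -0.44 (adjusted p = 0.00509). Col6a3, with a transcript of 10106 nt, thus went from the largest to the smallest of the 3 changes. Col8a1 and Col8a2 remained called higher, at 1.93 (adjusted p = 0.00204) and 1.86 (adjusted p = 0.000455). Col16a1 was at -0.50 and not called (adjusted p = 0.139), and Col14a1 was at 0.02 (adjusted p = 0.944). Col12a1 turned from -0.24 to 0.58 and was called higher (adjusted p = 0.00165), so its direction depends on whether the trend is removed. With the offset 3 members were called higher and 3 lower, against 22.7% and 28% of all genes (50.7% together).

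**Figure D3:**
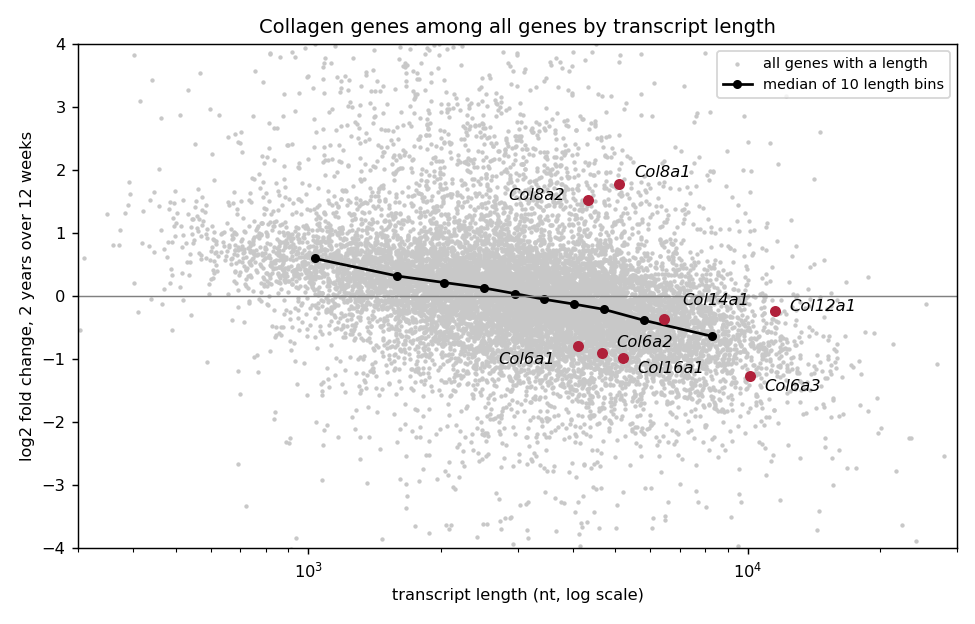
Log2 fold change (2 years over 12 weeks) against transcript length (nt, log axis) for all genes with a length (grey), the medians of 10 length bins (black line) and the 8 collagen genes (red); genes beyond the axis limits are not shown. Col8a1 and Col8a2 lie above and the collagen VI chains and Col16a1 below the median of genes of their length, while Col12a1 lies above it.

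Among genes of their own length bin, Col8a1 was above 96.5% and Col8a2 above 94.4% of genes in log2 fold change. The collagen VI chains were above 15.8% to 17.5% of their bins and Col16a1 above 18.0%. Col14a1 was above 51.2% and Col12a1 above 71.1%. These shares describe where each gene stands and are no test.

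**Figure D4:**
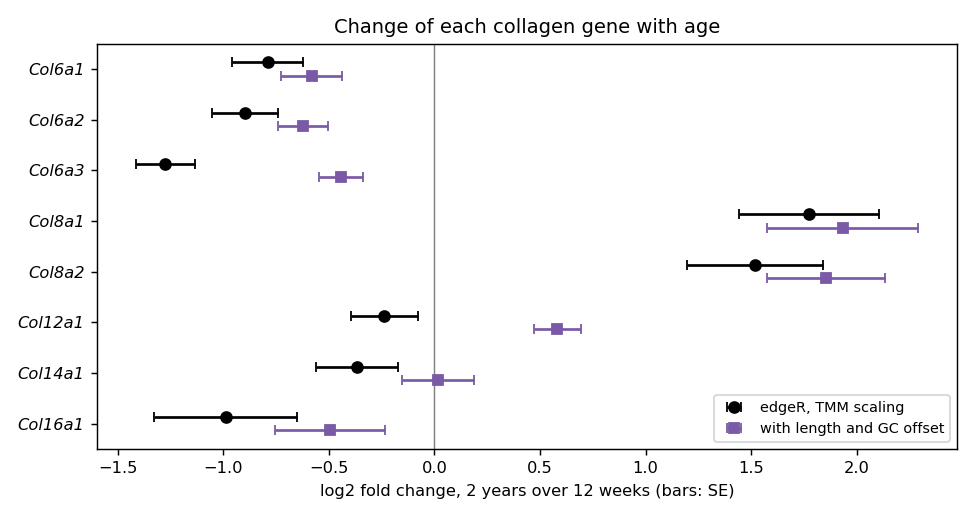
Log2 fold change (2 years over 12 weeks, horizontal axis) with its SE for each collagen gene, from edgeR with TMM scaling (black circles) and with the length and GC offset (purple squares), over 4 libraries per age. The offset leaves Col6a1, Col6a2 and Col6a3 below 0 and Col8a1 and Col8a2 above 0, and moves Col12a1 from -0.24 to 0.58.

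Ratios of 2 transcripts within a library do not depend on library scaling, and 5 were compared. Col6a2 over Col6a1, chains that enter collagen VI in equal number, was 1.01, 1.07, 1.083 and 1.092 at 12 weeks and 1.095, 0.9096, 0.8313 and 1.183 at 2 years. The difference was -0.10 on the log2 scale and lay within the spread at 2 years (exact permutation p = 0.457, two-sided; adjusted p = 0.514 over the 5 ratios). Col6a3 over Col6a1 was 0.8394, 0.854, 0.7948 and 0.7623 at 12 weeks and 0.7092, 0.5477, 0.4747 and 0.645 at 2 years, without overlap. Its log2 difference of -0.47 had an exact permutation p of 0.0286, the smallest that 4 against 4 libraries allow, and an adjusted p of 0.0714, and with the length and GC offset it was 0.155 (adjusted p = 0.524).

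The ratio Col8a2 over Col8a1 was 0.1502, 0.1126, 0.2002 and 0.2619 at 12 weeks and 0.09571, 0.1515, 0.2274 and 0.09014 at 2 years. The ranges overlapped in part, 2 years replicates 1 and 4 lying below all 12-week libraries, with a log2 difference of -0.39 (exact permutation p = 0.343, adjusted p = 0.514). Col14a1 over Col12a1 had a log2 difference of -0.14 with overlapping groups (exact permutation p = 0.514). With the length and GC offset that difference was -0.60 (exact permutation p = 0.0571, adjusted p = 0.143). Col16a1 over Col12a1 went from 2.381 to 3.676 at 12 weeks to 0.9796 to 2.127 at 2 years. Its log2 difference of -0.85 had an exact permutation p of 0.0286 (adjusted p = 0.0714), and with the offset it was -1.17 (adjusted p = 0.143). None of the 5 ratios passed the threshold after adjustment, with or without the offset. With 0.0286 as the smallest possible p, no ratio could pass on its own after adjustment over 5. Col6a3 over Col6a1 and Col16a1 over Col12a1 reached that p without the offset and still stood at 0.0714. Not passing therefore does not show that a ratio was unchanged.

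**Figure D5:**
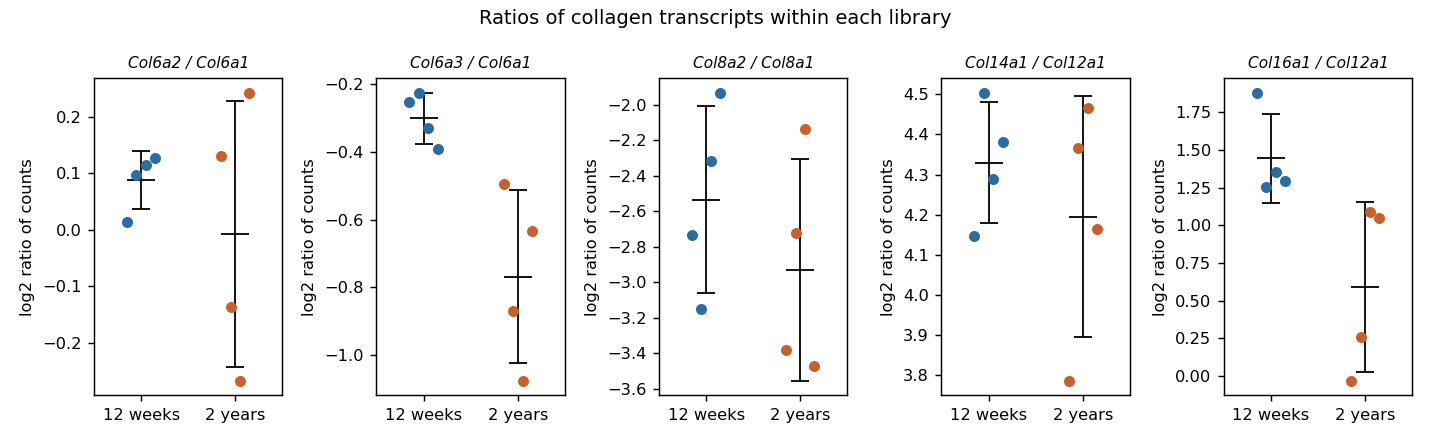
Log2 ratio of the counts of 2 collagen genes in each library at 12 weeks (blue) and 2 years (orange), with mean and SD; the vertical scales differ between panels. The groups overlap for Col6a2 over Col6a1, Col8a2 over Col8a1 and Col14a1 over Col12a1, and do not for Col6a3 over Col6a1 and Col16a1 over Col12a1.

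Within an age, the 3 collagen VI chains varied together only in part. After the age means were removed, Pearson's r over the 8 libraries was 0.70 between Col6a1 and Col6a2, 0.60 between Col6a1 and Col6a3 and 0.84 between Col6a2 and Col6a3. Col6a2 was at rank 1121 of 9617 genes by likeness to Col6a1. Col8a1 and Col8a2 had an r of 0.44, and Col8a1 had an r of 0.06 with Col6a1. The member pairs with the highest values were Col6a3 with Col12a1 (r = 0.92) and Col6a1 with Col14a1 (r = 0.90). Genes closest to a member by this measure were Ubn1, Crispld2 and Tmcc1 for Col6a1, Maml3, Zc3h7b and Ttc28 for Col6a2, and Pknox2, Lrrc32 and Npas2 for Col6a3. Those for Col8a1 were Eps8l2, Sec16b and Klhl26, and those for Col8a2 were Spout1, E4f1 and Adamts10. Yeats2, Fam102b and Piezo1 stood closest to Col12a1, Tubb2b, Hmgxb4 and Tshz1 to Col14a1, and Mllt6 and Fst to Col16a1. All of these had an r of at least 0.964, picked as the highest of 9617 over 8 libraries, in which all genes share each library's depth and length trend, and they are a description.

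Of 10 further collagen VI, fibril-associated and short-chain genes with counts, 5 could be tested. Of these 3 fell, 0 rose and 2 did not pass. Col6a6, a chain that can take the place of alpha 3 in collagen VI, stood at 17.64, 25.76, 29.26 and 36.62 CPM at 12 weeks and at 7.817, 7.165, 16.91 and 6.319 CPM at 2 years (log2 fold change -1.54, SE 0.326, edgeR adjusted p = 0.00296). It fell in the same direction as the 3 main chains, at a much lower level. Col20a1 fell from 5.93 ± 1.11 to 0.493 ± 0.383 CPM (SD, n = 4; -3.67, adjusted p = 8.60e-05) and Col22a1 from 0.948 ± 0.154 to 0.269 ± 0.155 CPM (-1.85, adjusted p = 0.00566), both fibril-associated collagens. With the offset Col6a6 stood at -0.86 (adjusted p = 0.0492), Col20a1 at -3.37 and Col22a1 at -1.22 (adjusted p = 0.0280). Col19a1 was at 5.24 ± 0.895 and 3.51 ± 1.56 CPM (adjusted p = 0.107), and Col10a1, the short-chain relative of collagen VIII, at 0.768 ± 0.162 and 0.624 ± 0.286 CPM (adjusted p = 0.580). Col6a4, Col6a5, Col9a1, Col9a2 and Col9a3 were too low to be tested, with at most 44 counts over the 4 libraries at 12 weeks. Col6a5 reached 174 counts in 2 years replicate 3 and 2 to 22 counts in the other libraries.

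The median log2 fold change was -0.58 over the 8 members and -1.21 over the 26 other collagen chains tested, of which 17 fell and 2 rose, against -0.01 over all genes. With the length and GC offset the medians were -0.21, -0.70 and -0.06. Of 10 fibrillar chains 5 fell and 2 rose (8 and 2 without replicate 3 of both ages). The collagen V chains Col5a1 (-1.18, edgeR adjusted p = 0.000532) and Col5a2 (-1.24, adjusted p = 0.000573) and the low Col11a2 (-3.67, adjusted p = 0.000232) had the smallest p. With the offset Col5a1 was at -0.42 (adjusted p = 0.0226), Col5a2 at -0.84 and Col11a2 at -2.98. Fbn1, the mutated gene, also fell, with a log2 fold change of -0.77 (adjusted p = 0.00309) that was 0.16 with the offset.

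Among 10 collagen receptors 5 fell and 2 rose (3 and 2 with the offset, 5 and 1 without replicate 3 of both ages). Antxr1, a receptor that binds collagen VI, fell from 398.5 ± 69.3 to 206 ± 49.7 CPM (SD, n = 4; log2 fold change -0.95, edgeR adjusted p = 0.00178, and -0.73 with the offset). Its relative Antxr2, a receptor that takes up collagen VI, was at 98.8 ± 9.83 and 90.8 ± 12.1 CPM (-0.12, adjusted p = 0.473). Cspg4, a proteoglycan receptor for collagen VI, was called lower at -0.74 (adjusted p = 0.00504) and stood at 0.06 with the offset. The integrin chains Itga10 (-2.29, adjusted p = 5.42e-05) and Itga1 (-0.88, adjusted p = 0.00248) fell; with the offset they were at -2.02 and -0.11.

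Of 8 matrix partners 2 fell and 1 rose (2 and 2 with the offset, where Vwa1, a matrix protein with a von Willebrand A domain, was also called higher at 0.61, adjusted p = 0.00633). Tnxb, the tenascin that binds collagens XII and XIV, fell from 348.5 ± 88.7 to 138.5 ± 29.5 CPM (log2 fold change -1.33, edgeR adjusted p = 0.000379). Its transcript is 12209 nt long, and under the offset it stood at -0.16. Comp, which binds collagen XII, rose from 46.3 ± 4.32 to 191.6 ± 114 CPM (2.05, adjusted p = 0.000766; 2.01 with the offset), and was highest in 2 years replicate 4 at 358.6 CPM. Matn2, a matrilin, fell (-0.67, adjusted p = 0.00153). The small proteoglycans Dcn (1264 ± 71.0 and 1298 ± 580 CPM, adjusted p = 0.906) and Bgn (11640 ± 2401 and 8518 ± 2496 CPM, adjusted p = 0.142), which bind collagen VI, did not pass the threshold; with the offset Bgn was called lower (-0.66, adjusted p = 0.0364).

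Enzymes that hydroxylate, fold and glycosylate collagen chains divided: 3 of 16 rose and 4 fell (median log2 fold change 0.065, and -0.13 under the offset). The prolyl hydroxylase subunit P4ha3 rose from 0.483 ± 0.218 to 3.51 ± 1.44 CPM (log2 fold change 2.83, edgeR adjusted p = 0.000248). The lysyl hydroxylase Plod2 (-0.80, adjusted p = 0.00117) and the prolyl 3-hydroxylase P3h2 (-0.91, adjusted p = 0.00255) fell.

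The libraries held 16251986 to 33880690 counts. Markers of cells that make these collagens moved with age in part. The summed level of 10 smooth muscle markers was 31780 to 37750 CPM at 12 weeks and 17950 to 27010 CPM at 2 years, with 7 lower and 0 higher. Of these Myh11 alone went from 7962 ± 1141 to 2416 ± 916 CPM (SD, n = 4). Acta2 (edgeR adjusted p = 0.144), Tagln (adjusted p = 0.490) and Des (adjusted p = 0.399) did not pass. The sum of 10 fibroblast markers was 2737 to 3984 CPM at 12 weeks and 1897 to 2389 CPM at 2 years, with 2 lower and 1 higher. Of the fibroblast markers Pdgfra (217.5 ± 21.7 and 189.8 ± 16.3 CPM, edgeR adjusted p = 0.209) and Dpt (adjusted p = 0.403) did not pass. Gsn, which smooth muscle also expresses, and Pi16 fell, and Cd34, also made by endothelial cells, rose. Gsn alone was at 1362 to 2165 CPM at 12 weeks and at 488.8 to 888.1 CPM at 2 years. The fall of the fibroblast sum was thus mostly that of Gsn. In bulk tissue fewer cells of a type and less RNA per cell cannot be told apart. Endothelial markers summed to 425.2 to 880.8 and 455.1 to 605.9 CPM, with 2 of 10 lower and 0 higher (1 and 1 without replicate 3 of both ages). The lowest 12-week sum, 425.2 CPM, was that of replicate 1, against 806.9 to 880.8 CPM in the others. Col8a1, Col8a2 and Col16a1 were highest at 12 weeks in that library; without it Col8a1 was at 2.15 and Col8a2 at 1.80, both called, and Col16a1 was not called. All 10 macrophage markers rose, from 424.4 to 583.8 CPM in sum to 1840 to 2353 CPM, and all 10 lymphocyte markers rose. None of the lists had a marker at 0 in all libraries. Heart muscle markers summed to 1309 CPM in 12 weeks replicate 3 and to 232.6 to 294 CPM in the other 12-week libraries, against 88.24 to 175.5 CPM at 2 years. Among them Ryr2 was at 144.7 to 182.7 CPM at 12 weeks and at 13.05 to 33.23 CPM at 2 years. Outside 12 weeks replicate 3 the fall of the heart muscle sum was mostly that of Ryr2. The mean of Tnnt2 was higher at 2 years (72.09 and 105.3 CPM). Mesothelial markers summed to 631.3 CPM in 2 years replicate 3 and to 171.9 to 247.8 CPM in the other 2-year libraries. Fat cell markers were also highest there, at 1746 CPM against 687.8 to 1219 CPM, and at 12 weeks in replicate 3 (1361 against 302.8 to 572.5 CPM). The sum of the fibrillar chains was 14710 CPM in 2 years replicate 3 and 6421 to 8326 CPM in the other 2-year libraries. Without replicate 3 of both ages the collagen VI chains were at -0.98, -0.97 and -1.35, Col8a1 at 1.63 and Col8a2 at 1.09, all called, and Col14a1 was also called (-0.565). That made 2 members higher and 5 lower, against 22.7% and 23.7% of all genes (46.4% together). The part of cell makeup in the change of the members was not tested.

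The promoters of the 4 partner-chain genes shown above are given because the members of each pair moved together. They are the 250 bases before the annotated start, 5′ to 3′ on the gene's strand, from RefSeq on GRCm38.p6, an older build than that of the count tables. Col6a1 lies at chr10:76726045-76726294 and Col6a2 at chr10:76623405-76623654, both on the minus strand. Col8a1 lies at chr16:57754738-57754987 on the minus strand and Col8a2 at chr4:126286544-126286793 on the plus strand. Capitals mark matches, on either strand and counted with overlaps, to the GC box GGGCGG and the AP-1 motif TGANTCA.

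Col6a1: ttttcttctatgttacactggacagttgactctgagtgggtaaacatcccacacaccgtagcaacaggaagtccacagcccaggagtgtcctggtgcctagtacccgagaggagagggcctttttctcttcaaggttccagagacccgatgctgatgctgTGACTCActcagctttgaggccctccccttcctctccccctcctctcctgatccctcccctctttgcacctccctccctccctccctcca
Col6a2: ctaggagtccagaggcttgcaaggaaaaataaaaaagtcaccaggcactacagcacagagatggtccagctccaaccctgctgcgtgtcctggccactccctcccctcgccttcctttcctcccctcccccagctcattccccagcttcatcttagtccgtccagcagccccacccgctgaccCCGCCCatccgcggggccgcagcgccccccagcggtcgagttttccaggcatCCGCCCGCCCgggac
Col8a1: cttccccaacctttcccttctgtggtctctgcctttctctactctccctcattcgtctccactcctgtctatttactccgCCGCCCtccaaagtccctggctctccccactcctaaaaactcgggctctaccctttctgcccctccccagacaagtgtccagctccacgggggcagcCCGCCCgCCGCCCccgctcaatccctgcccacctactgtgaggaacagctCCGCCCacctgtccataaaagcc
Col8a2: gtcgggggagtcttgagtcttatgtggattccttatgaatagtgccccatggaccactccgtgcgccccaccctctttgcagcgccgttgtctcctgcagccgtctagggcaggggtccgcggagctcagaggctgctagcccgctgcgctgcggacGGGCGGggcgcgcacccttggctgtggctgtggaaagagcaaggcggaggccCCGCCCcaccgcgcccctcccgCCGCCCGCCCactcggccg

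A GC box was found 4 times in each collagen VIII promoter, 3 times in that of Col6a2 and 0 times in that of Col6a1, and at least once in 32.7% of 32851 windows of this length. Col6a1 held 1 AP-1 match, a motif found in 6.7% of windows, and the other 3 held 0. The TATA box TATAAA (12.4% of windows) and the CCAAT box (33.8%) were found in none of the 4, nor was the CArG box of smooth muscle genes (1.5%). Promoters were listed for 6 of the 8 members, and Col6a2 had a second listed start. Of the windows not shown, that of Col6a3 held 0 GC boxes and 0 AP-1 matches. The second start of Col6a2 and the promoter of Col16a1 each held 1 GC box and 0 AP-1 matches. The counts of GC boxes thus depend on which windows are taken. A match is a match of letters only.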

How the data were processed

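Bulk RNA sequencing of aorta was analysed from 8 tables of raw counts per gene, deposited by the authors as total counts per the file headers. The submitters' processing notes name GRCm39. The aligner, counting tool, annotation, library preparation and strand handling were not given in the sources used here. No annotated exon of another gene overlaps those of a member (GENCODE M21). Ages were taken from the titles. Nothing beyond the labels says how far the mice were independent, so p-values measure the spread between these samples. The number of libraries and their depth limit precision: the lowest member count in a library was 164.

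Of 25526 genes, 13978 passed filterByExpr and were fitted with edgeR 4.0.16 (R 4.3.3; TMM; robust quasi-likelihood F test on age; Benjamini-Hochberg over all genes, threshold 0.05). Log CPM used a prior count of 2. Lengths and GC came from the longest protein-coding GENCODE M21 transcript, for 13618 tested genes (97.4%); the offset used splines with 4 degrees of freedom. Ratios were tested by exact permutation over 70 assignments. Alternatives used limma 3.58.1, DESeq2 1.42.0 and sva 3.50.0. The procedure was run on simulated counts with few changed genes, balanced in direction, and no trend on length. That run does not cover the many calls and the length trend seen here. The members, gene lists and tests were chosen with earlier results of these data known. Genes are named by this rule: members; the other collagen VI, fibril-associated and short-chain genes; from each list up to 3 called genes with the smallest p, or the 2 with the highest level where none was called; the 3 genes most like each member, among genes averaging 10 CPM or more; and Fbn1. Antxr2, Cspg4, Dcn, Bgn, Vwa1, Myh11, Acta2, Tagln, Des, Pdgfra, Dpt, Gsn, Ryr2 and Tnnt2 were added or singled out after their values were seen. Some marker genes the rule takes are given only in list counts. 1 gene the rule takes is not reported here.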

Additional observations from a re-analysis of the deposited data

Results flagged for a closer look

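In 46 groups of 4 libraries, taken over the members, their relatives and the 5 ratios, 6 had a highest or lowest library whose gap to the next exceeded Dixon's 95% limit as a share of the group's range. Chance alone gives about 1 in 20 such groups. Among members these were Col8a2 at 12 weeks, where replicate 1 was at 13.4 CPM, and Col12a1 at 2 years, where replicate 2 was at 21.1 CPM. At 12 weeks replicate 1 also had the highest log2 ratio of Col16a1 over Col12a1, at 1.88. The other 3 were low-level collagen VI chains that were all highest in 2 years replicate 3: Col6a4 at 0.455 CPM, Col6a5 at 11.3 CPM and Col6a6 at 16.9 CPM. That library also had the highest 2-year values of Col6a1, Col6a3, Col8a2, Col12a1, Col14a1 and Col16a1. Its mesothelial and fat cell marker sums, 631.3 and 1746 CPM, were the highest of the 8 libraries, and their part in these values was not tested.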

How the results depend on the processing

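Collagen VI and VIII kept direction and call in all 17 alternatives. Col6a1 ranged from -0.983 to -0.582, Col6a2 from -0.97 to -0.624, Col6a3 from -1.348 to -0.443, Col8a1 from 1.558 to 2.146 and Col8a2 from 1.094 to 1.855, with adjusted p of at most 0.0203. With the length and GC offset, alone and with the replicate block, Col12a1 reversed to 0.582 and 0.584, Col16a1 was not called at -0.495 and -0.584, and, with the offset alone, Col14a1 was at 0.016 and the log2 ratio of Col6a3 over Col6a1 at 0.155. Col14a1 was called at -0.434 with 1 surrogate variable and at -0.565 without both replicates 3. Leaving out single libraries gave -0.553 to -0.277 for Col14a1 and -1.239 to -0.786 for Col16a1, and 3 to 5 members called lower. The cause of these differences was not tested. Nothing in the labels says that replicate numbers pair the mice. Correlations of same-numbered deviations were -0.308, -0.116, 0.0511 and 0.0253, against -0.125 to 0.283 for different numbers. Such correlations cannot show whether mice were matched. With the replicate block 3112 genes were called higher and 3320 lower, and it changed no call among the members. With that block added to the offset, 2 further named chains missed the threshold, Col5a1 (adjusted p = 0.0555) and Col22a1 (adjusted p = 0.0638).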
